A study of Mus musculus with 6 samples.

Results

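Meiotic recombination and crossover genes were examined as a set of 10: Spo11, Dmc1, Psmc3ip, Mnd1, Msh4, Msh5, Hfm1, Rnf212, Ccnb1ip1 and Mlh3. Each gene was represented by the brightest of its probe sets that list a single gene symbol, by mean over the 6 arrays. That gave a value for 8 of the 10 genes, out of 19938 genes with such a probe set. Mnd1 is listed only on a probe set shared with its pseudogene, Rnf212 was matched by neither symbol nor gene identifier, and both are not analysed here.

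The samples were oocytes at the germinal vesicle stage, arrested in meiotic prophase, taken from wildtype females and from females with a homozygous mutation of Brwd1, both groups on a B6/C3H background. The mice, aged 2 to 6 months, had been given 5 IU of equine chorionic gonadotropin, a hormone that drives follicle growth, 44 h before isolation. Each of the 3 wildtype and 3 mutant samples was a pool of 100 oocytes on its own Affymetrix mouse Gene ST array, and values are log2 levels. The labels name neither the kind of mutation nor the animals behind each pool, so the p-values rest on the spread between pools, part or all of which may be technical.

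Crossovers join homologous chromosomes so that they can be separated at the first meiotic division. SPO11 opens the reaction by cutting both DNA strands, and the recombinase DMC1, helped by the HOP2-MND1 complex (HOP2 is encoded by Psmc3ip), pairs the broken end with the homologue. MSH4 and MSH5 act as a dimer that stabilises the joined intermediates with the helicase HFM1, the RING-domain proteins RNF212 and HEI10 (encoded by Ccnb1ip1) select the sites that will cross over, and MLH3 belongs to the nuclease that cuts most of them into crossovers. In female mice these steps run in the fetal ovary, so the oocytes studied here had passed them.

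Brwd1 checked the labels. It was at 8.91, 9.08 and 8.98 in wildtype 1, 2 and 3 and at 4.41, 4.56 and 4.50 in mutant 1, 2 and 3. All 11 oocyte markers lay above the background guide defined in the next paragraph, among them Gdf9, a growth factor of the oocyte, and Zp3, a zona pellucida protein. Array medians lay between 4.69 and 4.79 and upper quartiles between 7.04 and 7.12.

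In these oocytes Psmc3ip, Ccnb1ip1 and Msh4 gave clear signal, while Spo11, Dmc1, Msh5, Hfm1 and Mlh3 did not rise above background. The background guide was the 95th percentile, 4.48, of the mean levels of 1210 olfactory and vomeronasal receptor probe sets, taken as a guide to signal without target RNA. Their median was 3.13 and the brightest reached 9.71. All 6 arrays lay above the guide for each of the 3 detected genes. Mean levels of different probe sets depend on their probes and are not set against each other here. Of all 23410 annotated probe sets, 63.6% lay above the guide. In a pool, fewer cells that hold a transcript and less of it per cell cannot be told apart.

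**Figure D1:**
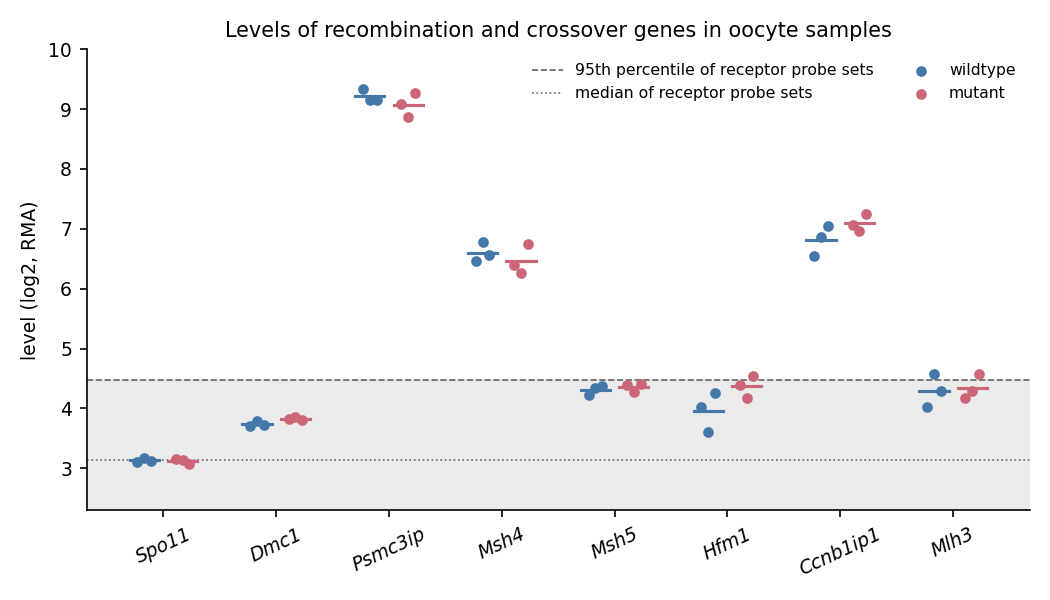
Level (log2, RMA) of the 8 measured genes in each sample, with wildtype in blue, mutant in red and bars at group means. The dashed line is the 95th percentile of receptor probe sets (4.48), the shaded area lies under it, and the dotted line is their median (3.13). Psmc3ip, Msh4 and Ccnb1ip1 lie above the dashed line in every sample.

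Of Dmc1 and Psmc3ip, the 2 strand exchange genes measured among the 10, Psmc3ip was the detected one. Its level was 9.34, 9.16 and 9.16 in wildtype 1, 2 and 3 and 9.08, 8.87 and 9.27 in mutant 1, 2 and 3. Mutant 3 fell inside the wildtype range and the other 2 mutant samples fell below it, so the groups overlapped. The difference, mutant minus wildtype, was -0.15 on the log2 scale (SE 0.11, n = 3 per group, 95% confidence interval -0.41 to 0.12; limma, Benjamini-Hochberg adjusted p = 0.583). Its RefSeq span overlaps that of Mlx, and the table used gives no strand.

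Dmc1, the recombinase that HOP2 and MND1 assist, was at 3.70, 3.79 and 3.73 in the wildtype and at 3.82, 3.86 and 3.80 in the mutant samples. The 3 mutant values all lay above the 3 wildtype values, with 3.80 against 3.79 at the closest, yet every value was under the guide, and 83.6% of receptor probe sets had a lower mean. The difference was 0.09 (SE 0.06, n = 3 per group, 95% confidence interval -0.05 to 0.22; limma, adjusted p = 0.515).

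Spo11, the enzyme that makes the breaks, sat at the middle of the receptor distribution. Its wildtype values were 3.10, 3.17 and 3.13, its mutant values were 3.15, 3.14 and 3.08, and 49.3% of receptor probe sets had a lower mean. The groups overlapped, with a difference of -0.01 (SE 0.06, n = 3 per group; limma, adjusted p = 0.948). For a probe set at this level, a change in RNA too small to lift it above background would not be seen.

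The MSH4-MSH5 dimer was split by detection. Msh4 was at 6.46, 6.78 and 6.57 in the wildtype and at 6.40, 6.26 and 6.75 in the mutant samples. Mutant 1 and 2 lay under every wildtype value, while mutant 3 lay just under the highest of them. The difference of -0.13 (SE 0.14, n = 3 per group, 95% confidence interval -0.47 to 0.20; limma, adjusted p = 0.702) was within the spread of the samples, whose SD was 0.16 in the wildtype and 0.25 in the mutant group.

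Msh5 was at 4.22, 4.35 and 4.37 in the wildtype and at 4.39, 4.27 and 4.41 in the mutant samples. Its mean stood 0.14 under the guide, with 93.4% of receptor probe sets lower, so it lay in the upper tail of background without passing it. The groups overlapped, with a difference of 0.04 (SE 0.07, n = 3 per group; limma, adjusted p = 0.807). The 2 partners' probe sets thus fell on opposite sides of the guide, which describes their signal on this array and not the ratio of their RNAs.

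Hfm1, the helicase, had the difference of greatest size among the 8 genes and the smallest p-value. Its brighter probe set was at 4.02, 3.60 and 4.26 in the wildtype and at 4.40, 4.18 and 4.54 in the mutant samples. Wildtype 3 lay above mutant 2, so the groups overlapped, and 1 of the 6 arrays, mutant 3, passed the guide. The difference was 0.41 (SE 0.17, n = 3 per group, 95% confidence interval -0.002 to 0.83), which did not pass the threshold (limma, unadjusted p = 0.0509, adjusted p = 0.341).

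A dimmer probe set of Hfm1 was at 3.31, 3.39 and 3.46 in the wildtype and at 3.92, 3.50 and 3.77 in the mutant samples. Here the mutant values all lay above the wildtype values, all of them under the guide, with a difference of 0.34 (SE 0.11, n = 3 per group; limma, unadjusted p = 0.0182, adjusted p = 0.252). Both probe sets were thus higher in the mutant samples, and neither passed. The 8531 annotated probe sets at or under the guide had a median difference of 0.02, with 60.5% above 0, against 48.3% of the 14879 above the guide.

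Ccnb1ip1, which encodes the crossover ligase HEI10, had the difference of greatest size among the 3 detected genes, though its groups overlapped. It was at 6.54, 6.86 and 7.04 in the wildtype and at 7.07, 6.96 and 7.24 in the mutant samples. Mutant 1 and 3 lay above every wildtype value, and mutant 2 lay between wildtype 2 and wildtype 3. The difference was 0.28 (SE 0.14, n = 3 per group), a measured fold of 1.21 with a 95% confidence interval of 0.966 to 1.52 (limma, unadjusted p = 0.0845, adjusted p = 0.405). Of all annotated probe sets, 89.7% had a difference of smaller size.

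Mlh3, the endonuclease subunit that acts at the last step, was at 4.02, 4.57 and 4.30 in the wildtype and at 4.18, 4.30 and 4.57 in the mutant samples. Wildtype 2 and mutant 3 passed the guide and the other 4 samples did not. The groups spanned nearly the same range, with a difference of 0.05 (SE 0.16, n = 3 per group, 95% confidence interval -0.32 to 0.43; limma, adjusted p = 0.901).

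**Figure D2:**
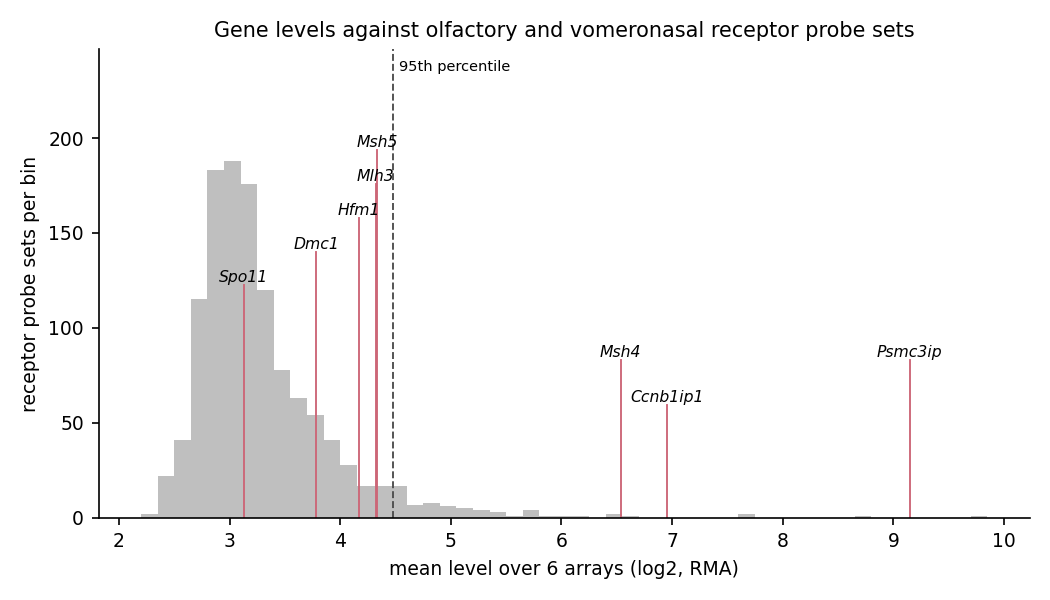
Histogram of the mean level (log2, RMA, over 6 arrays) of the 1210 receptor probe sets, with red lines at the mean levels of the 8 genes and a dashed line at the 95th percentile (4.48). Msh5 and Mlh3, each with 93.4% of receptor probe sets below, lie just left of the dashed line, and Msh4, Ccnb1ip1 and Psmc3ip lie far to its right.

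The count of detected genes depended on where the guide was set. With the 90th percentile of receptor probe sets, 4.02, Msh5, Hfm1 and Mlh3 were above it as well and the count was 6, while the 99th percentile, 5.70, left it at 3. Spo11 and Dmc1 lay under the guide at each of these settings.

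The promoters of the 3 detected genes and of Dmc1 are shown to set detected genes beside the least bright gene for which a window was found. Each window runs from 250 bases before to 50 bases after a start site (RefSeq, GRCm38.p6, minus strand, 5′ to 3′). Capitals mark matches on either strand to GGGCGG (the GC box) or CCAAT, 2 of the 7 motifs searched. The others were CACGTG as the E-box, GCGGGAA as an E2F-type site, TATAAA as the TATA box, TGACGT as a half-site for cyclic AMP response factors, and TAATTG as a homeodomain-type site. Matches to the GC box and the E2F-type site can overlap, as can those to CCAAT and the homeodomain-type site.
Psmc3ip at chr11:101095386-101095685: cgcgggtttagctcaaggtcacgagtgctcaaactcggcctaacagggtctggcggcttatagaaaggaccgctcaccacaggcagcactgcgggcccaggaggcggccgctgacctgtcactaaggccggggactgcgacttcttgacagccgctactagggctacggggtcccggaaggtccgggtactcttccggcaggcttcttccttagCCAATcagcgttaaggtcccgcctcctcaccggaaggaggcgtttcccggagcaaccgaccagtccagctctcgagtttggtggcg
Ccnb1ip1 at chr14:50795679-50795978: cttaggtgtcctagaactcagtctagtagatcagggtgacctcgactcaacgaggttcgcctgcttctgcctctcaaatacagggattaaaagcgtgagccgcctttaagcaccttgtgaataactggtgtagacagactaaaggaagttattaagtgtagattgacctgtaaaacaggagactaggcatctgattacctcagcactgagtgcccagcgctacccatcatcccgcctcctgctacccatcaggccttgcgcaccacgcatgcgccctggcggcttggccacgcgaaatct
Msh4 at chr3:153904842-153905141: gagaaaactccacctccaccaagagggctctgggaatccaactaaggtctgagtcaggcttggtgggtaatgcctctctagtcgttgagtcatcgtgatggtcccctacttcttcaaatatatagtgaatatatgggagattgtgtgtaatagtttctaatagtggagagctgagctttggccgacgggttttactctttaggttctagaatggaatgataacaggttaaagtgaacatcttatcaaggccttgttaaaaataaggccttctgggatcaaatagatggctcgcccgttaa
Dmc1 at chr15:79605060-79605359: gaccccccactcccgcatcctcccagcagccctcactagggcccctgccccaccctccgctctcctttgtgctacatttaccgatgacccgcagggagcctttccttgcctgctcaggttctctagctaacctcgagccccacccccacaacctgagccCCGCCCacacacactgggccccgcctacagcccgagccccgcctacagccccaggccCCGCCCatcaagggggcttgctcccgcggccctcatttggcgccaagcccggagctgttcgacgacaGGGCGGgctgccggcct

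The Psmc3ip window held 24 CpG dinucleotides, that of Ccnb1ip1 13, that of Msh4 6 and that of Dmc1 18, where the median of all 32851 windows was 7. Dmc1 had 3 matches to GGGCGG, a motif in 35.7% of all windows, and Psmc3ip had 1 match to CCAAT, a motif in 37.4%. The windows of Ccnb1ip1 and Msh4 held none of the 7 motifs, which says only that these letters are not in these windows. Among the genes that were not detected, the windows of Msh5 and Hfm1 held 27 and 41 CpGs, and the 2 windows of Mlh3 held 22 and 21. CpG counts of detected and undetected genes therefore overlapped. GC content ran from 43.3% for Msh4 to 75.3% for Hfm1. Windows were found for 9 of the 10 genes, and Spo11 was the other.

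Across the 8 genes, each by its brightest probe set, 0 passed the threshold of an adjusted p under 0.05 in either direction (limma, adjusted over all 23410 annotated probe sets). By the same probe sets 0 had an unadjusted p under 0.05, while the dimmer probe set of Hfm1 had 0.0182 (limma). In the same fit 0.137% of all annotated probe sets passed at the adjusted threshold and 14.7% had an unadjusted p under 0.05. With 8 genes and a background of 0.137%, a count of 0 is near the background. The adjusted p-values ran from 0.341 for Hfm1 to 0.948 for Spo11. The median difference over the 8 genes was 0.05, against 0.01 over all annotated probe sets, with 5 genes higher and 3 lower in the mutant group. Of the 3 detected genes, Ccnb1ip1 was on the higher side and Psmc3ip and Msh4 on the lower.

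**Figure D3:**
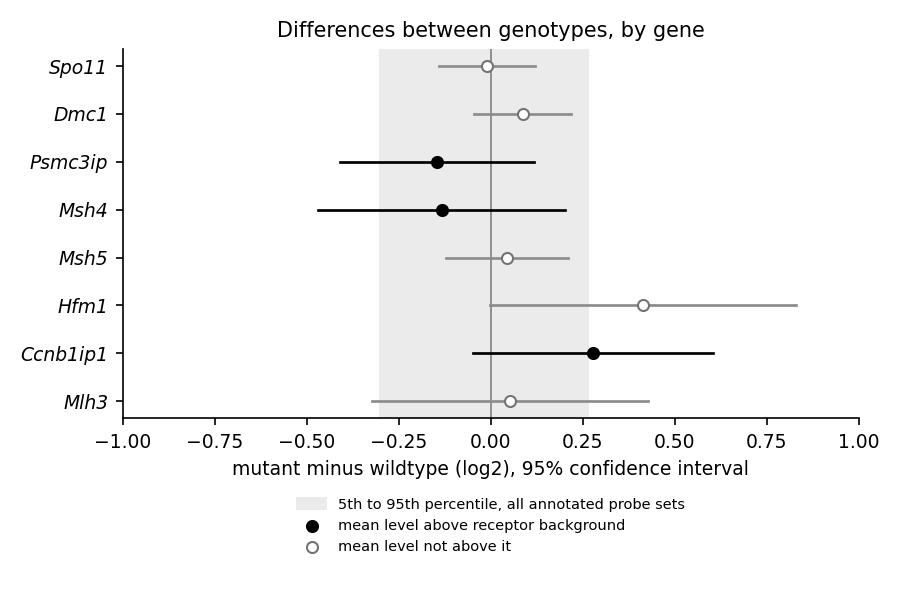
Mutant minus wildtype difference (log2) of each gene with its 95% confidence interval from the limma fit (3 samples per group). Filled points are genes above the receptor guide, open points are not, and the shaded band holds the 5th to 95th percentile of differences over all annotated probe sets (-0.30 to 0.26). Every interval includes 0, and Hfm1 and Ccnb1ip1 lie beyond the band.

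The intervals describe array signal and rest on the spread between pools, part or all of which may be technical. They therefore do not bound a difference between animals. For Psmc3ip the interval ran from 0.752 to 1.08 as a ratio of mutant to wildtype, for Msh4 from 0.722 to 1.15 and for Ccnb1ip1 from 0.966 to 1.52. Among the undetected genes, the interval of Hfm1 was the widest on the log2 scale and that of Spo11 the narrowest, from -0.14 to 0.12. A narrow interval at background limits the signal of the probe set and not the RNA.

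By the probe set taken for each gene, Dmc1 was the 1 gene of 8 whose groups did not overlap. Of all annotated probe sets, 19.7% had groups that did not overlap. The dimmer probe set of Hfm1, which is not in the count, did not overlap either. Leaving out single arrays raised the count of genes for some arrays and not for others. Without wildtype 1, wildtype 2 or mutant 1 the count stayed at 1 gene, Dmc1, against 28.7%, 29% and 33% of all annotated probe sets. Without wildtype 3, Dmc1, Hfm1 and Ccnb1ip1 did not overlap (3 genes, against 31.9% of all annotated probe sets). Without mutant 2, Dmc1, Msh5, Hfm1 and Ccnb1ip1 did not (4 genes, against 28.7%), and without mutant 3, Dmc1, Psmc3ip and Msh4 did not (3 genes, against 27.7%). After quantile normalization again, cyclic loess or median centring the count was 0.

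Single samples held the same rank within their group for several of the genes. Mutant 3 was the highest of the 3 mutant samples for 6 of the 8 genes, namely Psmc3ip, Msh4, Msh5, Hfm1, Ccnb1ip1 and Mlh3, whereas it was the highest for 30.9% of all annotated probe sets. Wildtype 1 was the lowest wildtype sample for 6 of the 8, that is for Spo11, Dmc1, Msh4, Msh5, Ccnb1ip1 and Mlh3, against 29.7% of all annotated probe sets. For Psmc3ip, in contrast, wildtype 1 was the highest wildtype sample. Of the genes counted, Msh5, Hfm1 and Mlh3 for mutant 3 and Spo11, Dmc1, Msh5 and Mlh3 for wildtype 1 were not above the guide. Some of these ranks turned on small steps, such as 3.10 against 3.13 for Spo11 and 3.70 against 3.73 for Dmc1. Without mutant 2 the difference of Psmc3ip was -0.04 and that of Msh4 -0.03, and without mutant 3 they were -0.25 and -0.27. The part of array quality in this was not tested.

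Partner genes of the pathway were read from 3 lists, and 0 of 45 measured genes passed in either direction (limma, adjusted over all annotated probe sets, against 0.137% of all). For break formation and siting, 8 of 9 listed genes were measured, with a median difference of 0.02. Prdm9, the methyltransferase that marks hotspots, was at 4.47, 4.45 and 4.08 in the wildtype and at 3.90, 3.77 and 3.99 in the mutant samples. All of its mutant values lay under the wildtype values, at a mean that is not above the guide (difference -0.45, SE 0.12, n = 3 per group; limma, unadjusted p = 0.00754, adjusted p = 0.199).

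Top6bl, the partner subunit of SPO11, did not rise above the guide either, with a difference of 0.21 (limma, adjusted p = 0.224). Zcwpw1, a reader of the marks that PRDM9 writes, was above the guide with a difference of -0.26 (limma, adjusted p = 0.307). At an unadjusted p under 0.05, limma gave 3 of the 8 genes of this list, 1 higher and 2 lower, against 14.7% of all annotated probe sets. The groups of 2 of the 8 did not overlap, 1 higher and 1 lower, against 19.7%.

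For strand exchange, 20 of 23 listed genes were measured, 17 of them above the guide, with a median difference of -0.05. Brca2, which loads the recombinases, and its meiotic partners Hsf2bp and Brme1 were above the guide, named here after their values were seen, while their client Dmc1 was not. The 3 smallest p-values belonged to Xrcc3, which acts in recombinational repair, at -0.19, Swsap1 at -0.23 and Rpa1, a subunit of the single-strand binding protein RPA, at -0.15 (limma, unadjusted p = 0.0133, 0.0139 and 0.043, adjusted p = 0.225, 0.227 and 0.319). The mutant values of each lay under the wildtype values. In this list the groups of 4 of the 20 genes did not overlap, 1 higher and 3 lower, against 19.7% of all annotated probe sets. Limma gave 3 of the 20 at an unadjusted p under 0.05, against 14.7%. Both counts are near the background.

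For crossover choice and resolution, 17 of 20 listed genes were measured and 13 were above the guide, with a median difference of -0.12, 7 genes higher and 10 lower. The smallest p-values belonged to Cntd1, a cyclin-like crossover regulator, at -0.19, the helicase gene Brip1 at -0.12 and Prr19 at -0.16 (limma, adjusted p = 0.349, 0.392 and 0.414). Limma gave 0 of the 17 at an unadjusted p under 0.05, against 14.7% of all annotated probe sets. The groups of 2 of the 17, Cntd1 and Brip1, did not overlap, with the mutant values lower in each, against 19.7%. Rnf212b, a relative of Rnf212, was at 4.17, 4.35 and 3.91 in the wildtype and at 4.17, 3.91 and 3.97 in the mutant samples, all under the guide, named after its values were seen.

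**Figure D4:**
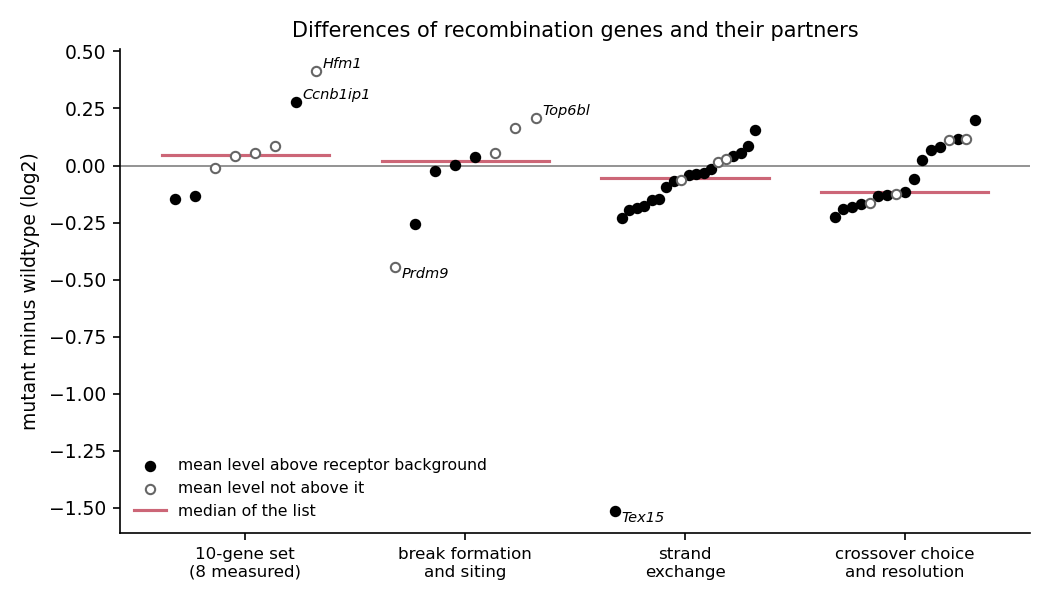
Mutant minus wildtype difference (log2) of the 8 measured genes and of the genes in the 3 partner lists, ordered by size within each list. Filled points lie above the receptor guide, open points do not, and red bars are list medians (0.05, 0.02, -0.05 and -0.12 from left to right). Tex15, singled out after its values were seen, lies apart at -1.51, with an adjusted p of 0.397 (limma).

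Markers of other cells were read beside these values. Of 16 granulosa and cumulus markers 10 were above the guide, against 63.6% of all annotated probe sets. Summed over the 16, log2 levels were 80.1 to 80.4 in the wildtype and 80.3 to 81.6 in the mutant samples. At an unadjusted p under 0.05, limma gave 4 of the 16, 3 higher and 1 lower, against 14.7%. The groups of 3 of the 16 did not overlap, 2 higher and 1 lower, against 19.7%. Nr5a2, a nuclear receptor of granulosa cells and among the brightest of the list with Gata4, was at 8.62, 9.15 and 8.91 in the wildtype and at 9.21, 8.92 and 9.01 in the mutant samples. Gata4 differed by 0.29 and Ptgs2 by -0.57 (limma, adjusted p = 0.17 and 0.252), while Amh, Fshr, Kitl, Amhr2, Ptx3 and Tnfaip6 were not above the guide. Of 6 theca and stroma markers 2 were above it, Col1a1 and Col1a2, with sums of 26.2 to 26.4 and 26.4 to 26.6. Of 9 blood, immune and endothelial markers 5 were above it. The sums over all 9, dim ones included, were 41.9 to 43.1 and 43.6 to 44.7 and did not overlap. Gene by gene, C1qb alone had groups that did not overlap, 1 of 9 against 19.7% of all annotated probe sets. The sums of the 11 oocyte markers did not overlap either, at 120.7 to 120.9 in the wildtype and 121.1 to 121.3 in the mutant samples. Of these 11 oocyte markers the groups of 5 did not overlap, 3 higher and 2 lower in the mutant samples. C1qb differed by 0.90, C1qa by 0.18 and Pecam1, an endothelial gene, by 0.18 (limma, adjusted p = 0.162, 0.316 and 0.528), while Ptprc, Csf1r, C1qc and Lyz2 were not above the guide. In these lists 0 genes passed, and the part of such cells in the values of Hfm1 and Ccnb1ip1 was not tested.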

How the data were processed

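RNA from 6 pools of oocytes was measured on 1-colour arrays. The deposited values are log2 levels that the authors made with Affymetrix Expression Console 1.1 and RMA, per the submitters' processing notes, which evens out array distributions, so a change in total RNA per oocyte cannot be seen and dim differences are compressed. Amplification (NuGEN Ovation Pico) started from 1 ng of total RNA, per the labels' protocols. The probes' genome build was not given in the sources used here. Their number, 6 arrays, limits the precision.

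Of 35556 probe sets, the platform annotation gave 1 symbol for 21789, several for 1621 and none for the rest, and the 23410 with a symbol were tested in limma 3.58.1 (R 4.3.3; lmFit and eBayes, two-sided, no covariates, 3 against 3, Benjamini-Hochberg adjustment, threshold 0.05). The fit was checked on simulated data with independent noise for each probe set. That simulation held no effect shared across an array and no pairing, so it does not cover these. Symbols absent from the annotation were matched through RefSeq synonyms (GRCm38.p6). Genes named besides the 10 and Brwd1 were up to 3 per partner list and up to 2 per marker list with the smallest p-values, and the 2 brightest markers of each list, except where stated. Markers not above background are named as well. The members and lists were chosen with earlier results of these data known. The weak correlations of same-numbered samples' deviations, given with the alternatives, cannot show whether those samples were handled together. Alternatives were a replicate block, other normalizations, filters on dim probe sets, other variance settings, other sets of probe sets, other thresholds and guides, and each array left out in turn. The planned protein comparisons were not run, because no protein sequences were used here.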

Additional observations from a re-analysis of the deposited data

How the results depend on the processing

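None of the 8 genes and none of the 45 partner genes passed under any of the 18 alternatives that tested them, and the filters on dim probe sets left out Spo11, Dmc1, Msh5, Hfm1 and Mlh3. The lowest adjusted p of a member under an alternative was 0.219, for Hfm1. Of 134 values of single genes under the alternatives, 123 kept their direction and 11 turned. Msh5 turned to -0.0106 after quantile normalization again, -0.019 after cyclic loess and -0.0133 after median centring, and Mlh3 to -0.0044, -0.0086 and -0.0033. Without 1 array, differences ran from -0.0267 to 0.0117 for Spo11, -0.0033 to 0.0867 for Msh5 and -0.085 to 0.19 for Mlh3. They ran from -0.25 to -0.04 for Psmc3ip, -0.27 to -0.03 for Msh4, 0.07 to 0.11 for Dmc1, 0.23 to 0.56 for Hfm1 and 0.14 to 0.39 for Ccnb1ip1. Over the 3 genes above the background or above the median level, the only members those filters keep, the median difference was -0.13.

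The groups of 0 members did not overlap after quantile normalization, cyclic loess, median centring or either filter, and of 1 to 4 members without 1 array. With the 90th percentile as guide, 6 members were above background. The count of all probe sets passing was 32, but 1 with all probe sets or with repeats counted once, 15 over gene means, 76 with trend and robust settings and 76 at a threshold of 0.1, and 1 to 18 without any 1 of the 6 arrays. With the replicate number as a block it was 1. The cause of these changes was not tested. Same-numbered samples' deviations correlated at -0.002, -0.03 and 0.04, and not every sample correlated best with its own number. With so few samples per group, this cannot show whether same-numbered samples were handled together.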

Other observations

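Tex15, a germ cell gene needed for loading recombinases, was singled out from the strand exchange list after its values were seen. It was at 5.80, 7.15 and 3.84 in wildtype 1, 2 and 3 and at 4.05, 4.04 and 4.16 in mutant 1, 2 and 3. Wildtype 1 and 2 were thus above the background guide of 4.48, and wildtype 3 was with the mutant samples under it. The difference was -1.51 (SE 0.74, n = 3 per group; limma, adjusted p = 0.397), so the groups overlapped and the gene did not pass.

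Meiob and Spata22, which bind single-stranded DNA together in meiotic recombination and are named after their values were seen, were not above the guide in any sample. Meiob ran from 2.59 to 2.71 and Spata22 from 2.83 to 2.97. Sfr1, a partner of Swi5, ran from 10.75 to 10.80 over the 6 samples, and Swi5 from 9.60 to 9.76.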
